A study of Rattus norvegicus with 6 samples.

Results

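The genes described here are the rat heat shock proteins, the DnaJ (J protein) co-chaperones and Hsf1. They were chosen by symbol from the array annotation: the HSP70 family (Hspa) with the HSP110 gene Hsph1, the HSP90 family, the chaperonins Hspd1 and Hspe1, the small heat shock proteins (Hspb), the DNAJA, DNAJB and DNAJC families, and Hsf1. The choice gave 69 genes read by 89 probes, of 19958 genes and 30367 probes on the array, and for each gene the brightest probe stands for it below. By family there were 12 HSP70 and HSP110 genes, 3 HSP90 genes, 2 chaperonin genes, 8 small heat shock protein genes, 4 DNAJA, 12 DNAJB and 27 DNAJC genes, and Hsf1.

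RNA was measured on 6 single-colour arrays, 1 per group, to set iron chelation in cultured liver cells beside dietary iron deficiency in rats. FAO cells, a rat hepatoma line, were exposed to 100 µM of the iron chelator deferoxamine (DFO) for 24 h, or to the vehicle without DFO. Wistar rats (mice in part of the labels) ate the purified AIN-93G diet without iron, or the complete AIN-93G diet, for 4 weeks, and liver and kidney were taken from both. Each array carried RNA mixed from 3 cultures or 6 animals, so every value is that of a mixture, there is no spread between cultures or animals, and no test was possible. Differences are given on the log2 scale, DFO minus untreated or iron-free minus control diet, and a gene is counted as higher or lower only at 2-fold or more. The ± after a difference is a standard error from repeated spots of similar brightness on the same array. It covers technical spot noise only and is not the gene's own, so individual spots are given for the genes that passed 2-fold. Where the spots of a pair of arrays are said not to overlap, that too concerns spot noise only. Repeated spots had a median ratio of 1.08 to 1.24 by array, and the share of all probes without overlap was not computed. In these bulk samples, fewer cells of a type and less RNA per cell cannot be told apart.

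Heat shock proteins are molecular chaperones that bind unfolded or partly folded proteins and keep them from aggregating. HSP70 proteins do so in cycles of ATP hydrolysis that J proteins start through their J domain and that HSP110 proteins restart by exchanging the nucleotide, while small heat shock proteins hold unfolded chains without ATP and HSP90 acts late, on nearly folded clients such as kinases and steroid receptors. HSF1 is the transcription factor that switches on many of these genes after heat or other damage to proteins, whereas the chaperones of the endoplasmic reticulum (ER) answer to the unfolded protein response.

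Of 8 hepatocyte markers, 8 were well above background on the liver and FAO arrays and 0 on the kidney arrays, where 8 of 8 kidney tubule markers were. Other cell types also differed between the diets. In liver, 6 of 8 measured erythroid markers (of 10 listed) and 5 of 5 proliferation markers were at least 2-fold higher on the iron-free diet, beside 6.52% of all genes. The summed normalised signal was 436211 in iron-free and 329620.0 in control liver for erythroid markers, and 5861 in iron-free and 657 in control liver for proliferation markers. Of 7 measured macrophage and neutrophil markers (of 8 listed), 2 were at least 2-fold higher in iron-free liver and 2 lay below 0. Their sum was 25135 in iron-free and 21763 in control liver. In kidney, 2 of 5 measured fibroblast markers (of 6 listed) and 2 of 7 erythroid markers were at least 2-fold higher on the iron-free diet, beside 3.11% of all genes. The fibroblast sum was 9198 in iron-free and 4181 in control kidney. The erythroid sum was 246439 in iron-free and 235891 in control kidney, with 1 of the 7 markers below 0. The part of these cells in the differences below was not tested. Some arrays also had noisy areas, judged from repeated spots of all probes in 264 blocks of 16 by 16 spots: 13 blocks on the DFO array, 0 on the untreated array, 0 on iron-free and 30 on control liver, 1 on iron-free and 6 on control kidney. Of the 69 genes, 15 had a spot in such a block on the DFO array, 14 on control liver and 3 on control kidney.

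Most of these chaperone genes were detected, and few differed by 2-fold. On all 6 arrays 40 of the 69 were well above background, 19 were so on some arrays and 10 on none: Hspa12b, Hspa1l, Hspb7, Hspb9, Dnajb7, Dnajb8, Dnajb13, Dnajc5b, Dnajc5g and Dnajc27. In FAO cells 4 of 55 measured genes (7.27%) passed 2-fold, Hspb8 higher with DFO and Dnaja1, Dnajc12 and Dnajc30 lower, against 10.5% of all 10695 measured genes (4.05% higher and 6.44% lower). In liver 2 of 50 (4%) did, Hsp90b1 higher and Dnajc28 lower on the iron-free diet, against 9.53% of 10172 genes (6.52% higher and 3.01% lower). In kidney 1 of 49 (2.04%) did, Hsf1 lower on the iron-free diet, against 4.37% of 8952 genes (3.11% higher and 1.26% lower). Without spots in noisy blocks the counts were 1 of 54 in FAO cells (Hspb8), 2 of 50 in liver and 1 of 49 in kidney, against 7.82% (3.89% higher and 3.93% lower), 8.58% (5.56% and 3.02%) and 3.82% (2.65% and 1.17%) of all genes. The count in each comparison was thus below the share of all genes, and no gene passed 2-fold in more than 1 comparison.

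The middle of the distribution was near 0 as well. The median difference was 0.04 in FAO cells, 0.06 in liver and -0.10 in kidney, beside 0.03, 0.02 and -0.03 for all measured genes. In FAO cells 29 of 55 lay above 0 (52.7%, against 53% of all genes), in liver 30 of 50 (60%, against 52.1%) and in kidney 17 of 49 (34.7%, against 45%). In the counts and medians here and below, a gene well above background on 1 array only entered at its bound. It could count only as higher on the array that detected it, and was otherwise left out. Both arrays detected 52 of the 55 genes in FAO cells, 43 of the 50 in liver and 49 of the 49 in kidney. Of all measured genes in liver, both arrays detected 8532 of 10172. The liver and kidney levels depend on the scaling: with each array set to the median of its own detected probes, the liver median of all genes moved to 0.59 and that of these genes to 0.63, and in kidney to 0.17 for all genes and 0.10 for these genes. Signs in liver and kidney are read with those shifts in mind below.

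**Figure D1:**
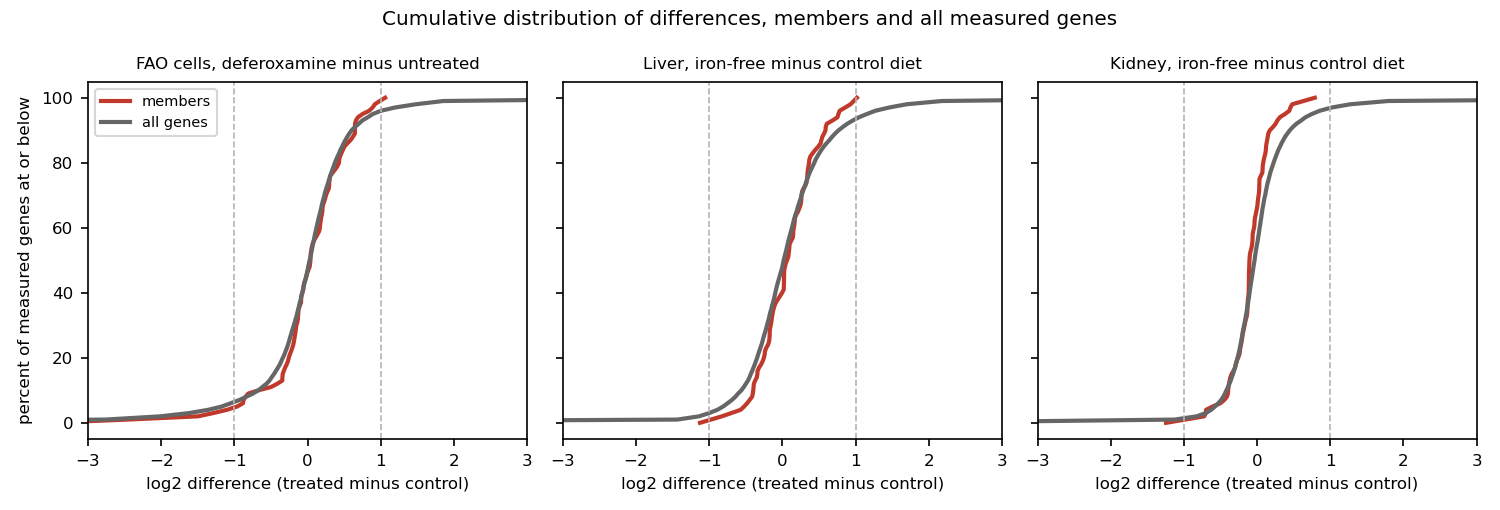
Cumulative share (percent of measured genes, vertical axis) at or below each log2 difference (horizontal axis) for the heat shock and DnaJ genes (red) and all measured genes (grey), with dashed lines at 2-fold. The red and grey curves lie close together at 0 in FAO cells. At 0 the red curve is lower than the grey in liver (60% of these genes above 0, against 52.1%) and higher in kidney (34.7% against 45%). The red curve ends at 1.06 in FAO cells, 1.02 in liver and 0.79 in kidney.

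A lower limit of 1.5-fold took in 14 of 55 genes in FAO cells (25.5%, against 22.3% of all genes), 8 of 50 in liver (16%, against 24%) and 4 of 49 in kidney (8.16%, against 12.2%). In FAO cells 8 of these were higher with DFO (Hspb8, Hspb1, Hsph1, Hspa2, Dnajb4, Dnajb6, Dnajc5 and Dnajc16) and 6 lower (Dnaja1, Dnajc11, Dnajc12, Dnajc14, Dnajc19 and Dnajc30), beside 10.6% and 11.7% of all genes. In liver 6 were higher on the iron-free diet (Hsp90b1, Hspb1, Hspa1b, Hsph1, Dnajb11 and Dnajc7) and 2 lower (Dnajb1 and Dnajc28), beside 14.6% and 9.44%. In kidney Dnajb6 was higher and Hsf1, Hspd1 and Dnajc12 were lower, beside 7.32% and 4.87%. Just inside the 2-fold limit lay Hspb8 (1.06) and Dnajc12 (bound -1.14) in FAO cells and Hsp90b1 (1.02) and Dnajc28 (-1.12) in liver, and just outside it Hspb1 (0.92), Dnajc14 (-0.89), Dnajc19 (-0.87) and Dnajc16 (bound 0.87) in FAO cells and Hspb1 (0.93) and Dnajb1 (-0.82) in liver.

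**Figure D2:**
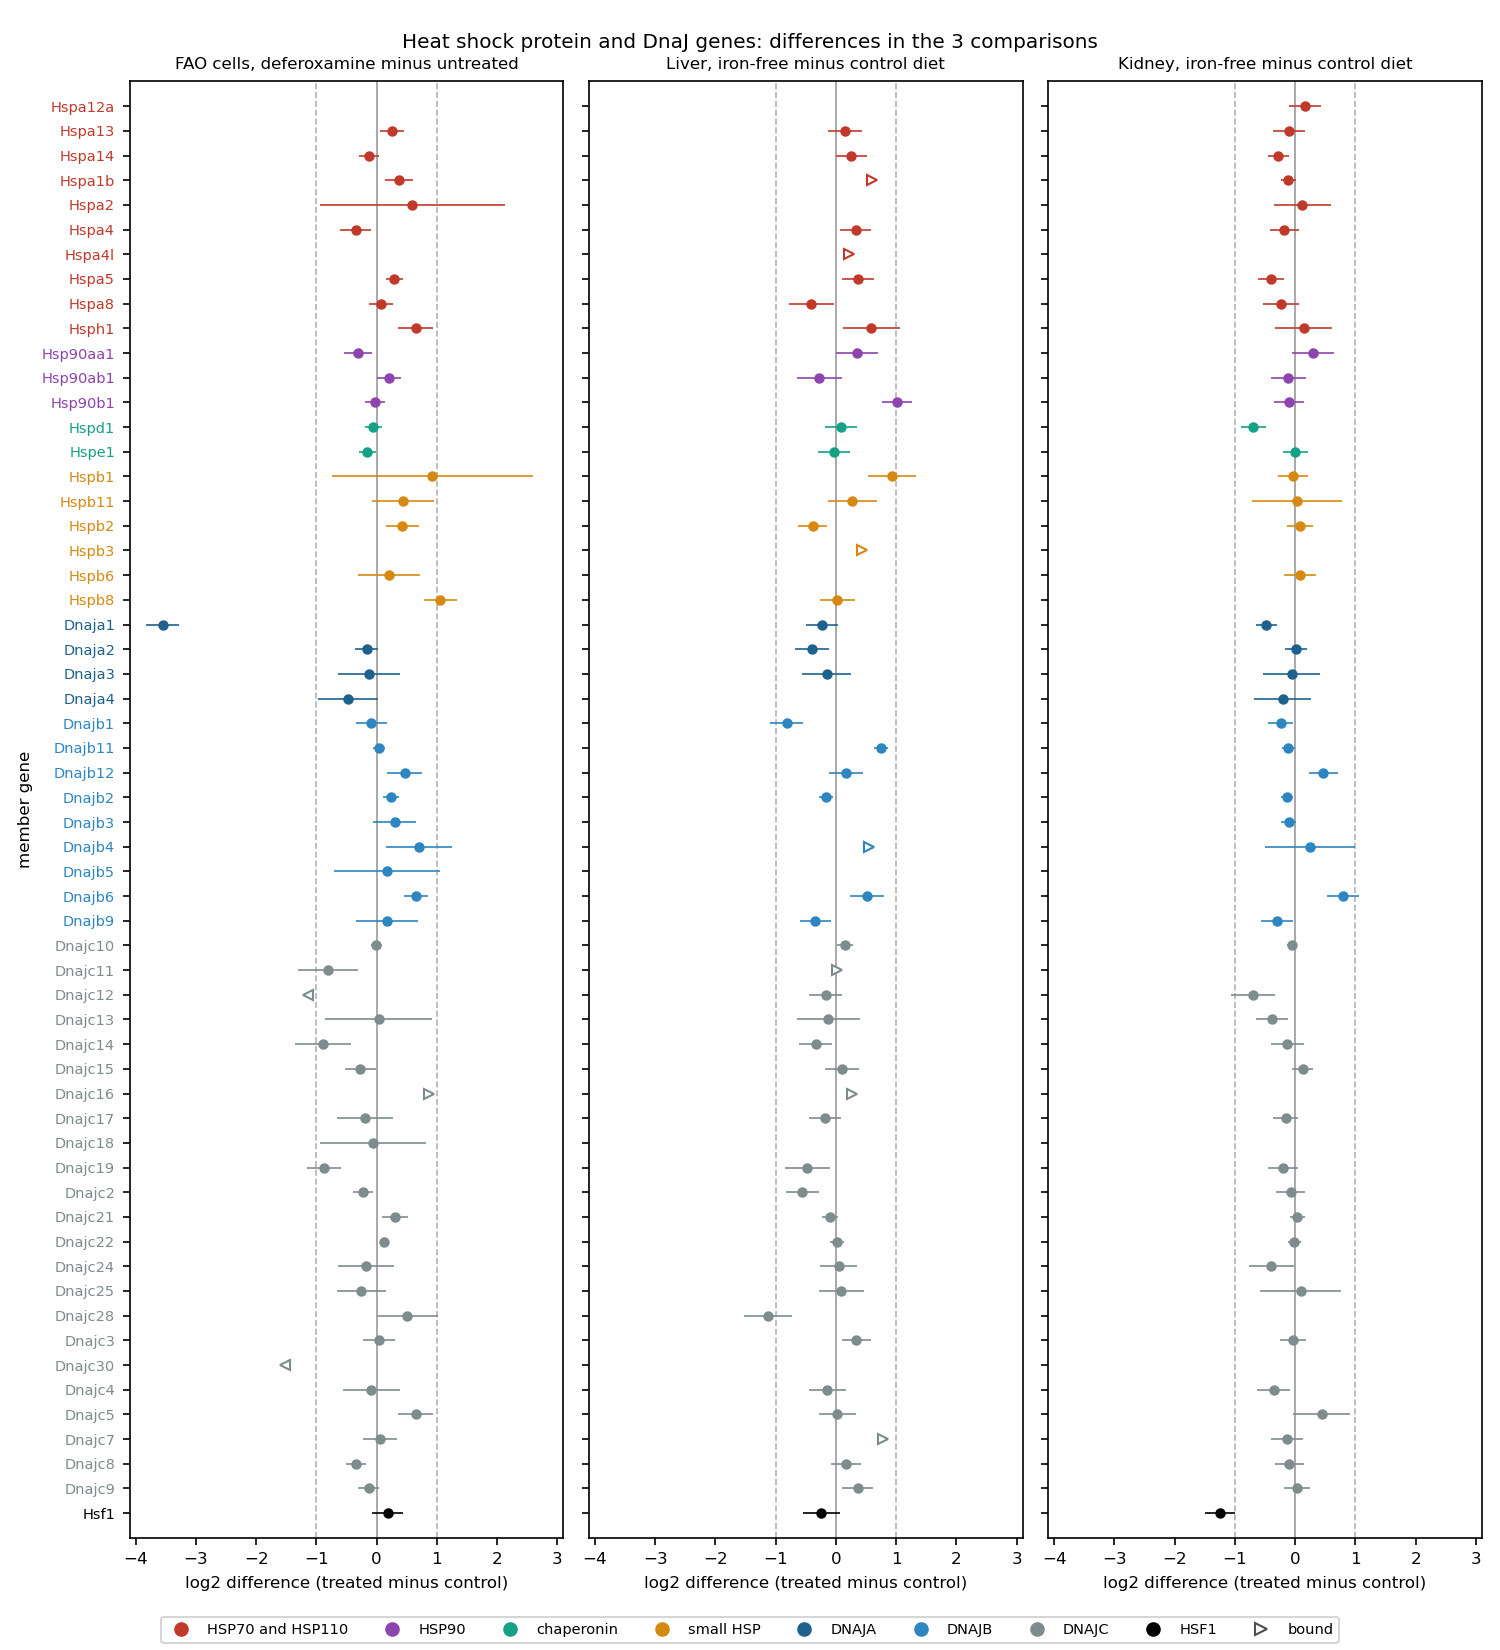
Log2 difference (horizontal axis) of every heat shock and DnaJ gene measured in at least 1 comparison (rows, coloured by family), treated minus control, with bars of 1 spot standard error, open triangles for bounds and dashed lines at 2-fold. Most genes lie between the dashed lines, and Dnaja1 in FAO cells, at -3.55, is the farthest from 0.

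HSF1 itself was measured everywhere. Hsf1 had spots of 1042 and 1124 in DFO-treated and 974 and 932 in untreated FAO cells (normalised signal, difference 0.18 ± 0.26). Its spots were 311 and 313 in iron-free and 426 and 321 in control liver (-0.25 ± 0.31). The brighter control liver spot was in a noisy block, and the liver value was -0.03 without it and 0.34 under the median scaling. In kidney they were 402 and 402 on the iron-free diet and 538 and 1687 on the control diet, a difference of -1.24 ± 0.25 or 2.37-fold lower. The control kidney spots themselves lay 3.14-fold apart, so the call rests mainly on the brighter of them: by position on the array the iron-free spots were 1.34-fold and 4.19-fold lower. No spot of Hsf1 on the kidney arrays was in a noisy block, and the kidney difference stayed between -1.24 and -1.04 under 8 alternative ways of processing. All of these kept the control spot at 1687, so the range does not show how far the value depends on it.

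Of 14 listed heat shock inducible genes, those known to follow HSF1 or heat in other settings, 13 were on the array. In FAO cells 12 were measured, with 1 at least 2-fold higher (Hspb8) and 1 lower (Dnaja1), a median of 0.14 and 7 above 0, beside 4.05% higher and 6.44% lower of all genes. Without noisy blocks Dnaja1 dropped out, leaving 1 higher and 0 lower of 11. In liver 13 were measured, 10 of them well above background on both arrays, none 2-fold apart, with a median of 0.08 and 8 above 0. In kidney 11 were measured, none 2-fold apart, with a median of -0.11 and 4 above 0. Of all genes 9.53% passed 2-fold in liver and 4.37% in kidney. The genes most often used as reporters of heat shock, Hspa1b, Dnajb1, Hsph1 and Hspb1, did not go the same way in any of the 3 comparisons: Dnajb1 was below 0 in each (though 0.01 in FAO cells under 1 alternative), while Hsph1 was above 0 in each, except with normexp background correction in liver and kidney.

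**Figure D3:**
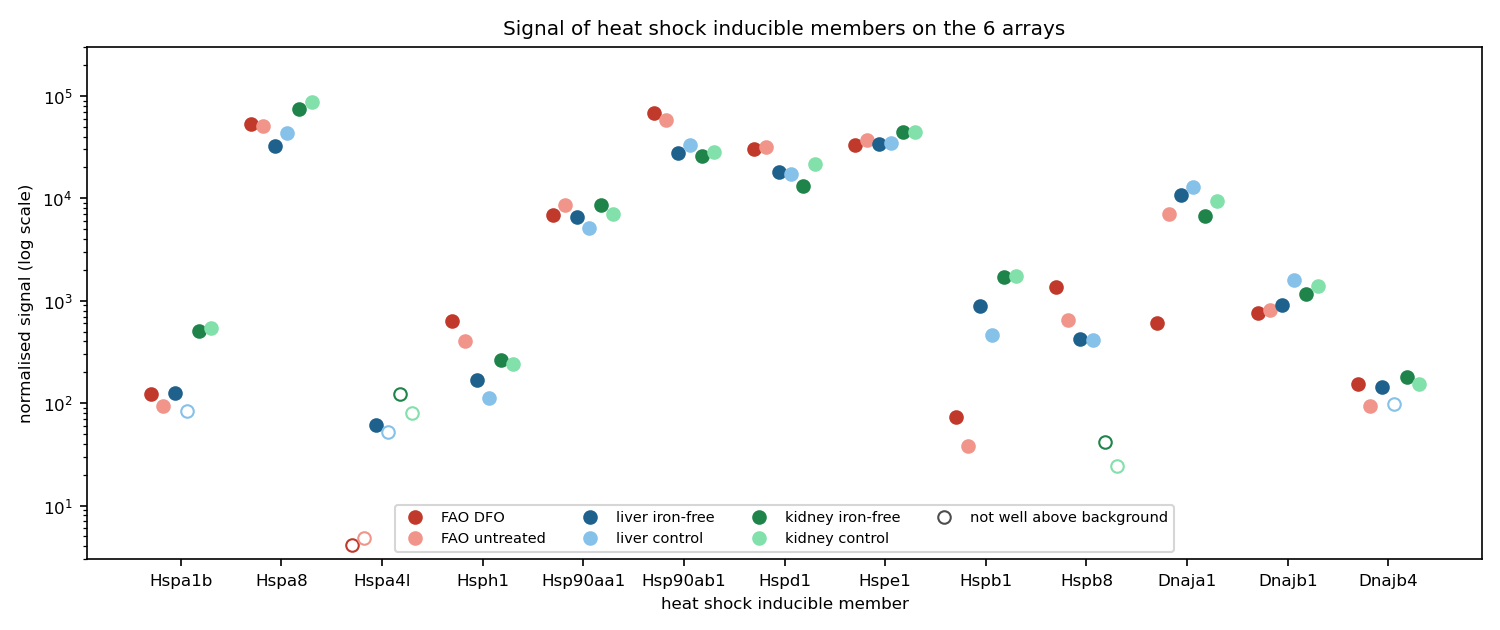
Normalised signal (vertical axis, log scale) of 13 heat shock inducible genes on the 6 arrays, treated left of its control within FAO cells, liver and kidney; open circles are arrays where the probe was not well above background. Points of a pair sit close together for most genes, while tissues differ, as for Hspb1 at 38.2 in untreated FAO cells and 1759 in control kidney.

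The promoters of 53 of the 69 genes were matched by gene ID to RefSeq promoter sequences of the GRCr8 rat assembly, and 250 bases before each gene start were searched on both strands. Hspa12a, Hspa1b, Hsp90aa1, Hspb2, Hspb11, Dnaja2, Dnajb4, Dnajc2, Dnajc5b, Dnajc8, Dnajc11, Dnajc12, Dnajc15, Dnajc22, Dnajc24 and Hsf1 were the other 16. The letters of a full heat shock element were GAANNTTC followed, after 2 bases of any kind, by GAA, or the same read on the other strand. They were in 4 of the 53 genes (7.55%) and in 182 of all 27457 genes with a promoter sequence (0.663%). The shorter core GAANNTTC, which every full match also holds, was in 12 of 53 (22.6%) and in 7.71% of all genes with a promoter sequence. A match is a description of letters, not a site or a cause. The 4 stretches below are shown because they mark the genes that carry the full letters, whose levels are given next, with the matches in capitals, from 5′ to 3′ on the gene's strand. Hspa8 lies at chr8:50080281-50080491 (plus strand, 2 matches), Hsph1 at chr12:10427312-10427364 (plus), Hspe1 at chr9:64084242-64084299 (plus) and Hspd1 at chr9:64084242-64084287 (minus). Hspd1 and Hspe1 are read away from each other, so the same 2 overlapping matches stand in both.
Hspa8: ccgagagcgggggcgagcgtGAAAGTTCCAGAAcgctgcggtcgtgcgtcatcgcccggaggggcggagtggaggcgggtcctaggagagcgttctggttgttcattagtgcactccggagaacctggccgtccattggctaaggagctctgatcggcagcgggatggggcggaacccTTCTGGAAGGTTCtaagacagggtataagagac
Hsph1: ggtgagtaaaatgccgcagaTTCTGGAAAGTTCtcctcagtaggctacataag
Hspe1: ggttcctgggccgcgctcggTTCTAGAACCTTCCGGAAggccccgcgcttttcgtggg
Hspd1: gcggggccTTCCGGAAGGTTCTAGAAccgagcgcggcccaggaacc

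By their brightest probe and the main scaling, these 4 genes stayed within 2-fold in every comparison. Exceptions were Hsph1 in liver under the median scaling (1.17) and another probe of Hspa8 in liver (1.26), which had no value without noisy blocks. Hsph1, the HSP110 exchange factor, had spots of 638 and 620 in DFO-treated and 535 and 301 in untreated FAO cells (0.65 ± 0.29), and of 168 and 166 in iron-free and 78.0 and 158 in control liver (0.59 ± 0.47). The treated spots were above both control spots in FAO cells and in liver, although the control spots of each pair were wider apart than the treated ones, and the liver value was -0.07 with normexp background correction. In kidney Hsph1 was 264 on the iron-free and 239 on the control diet (0.14 ± 0.48).

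Hspa8, the constitutive cytosolic HSP70, had 53069 in DFO-treated and 50394 in untreated FAO cells, 32479 in iron-free and 43098 in control liver, and 73752 in iron-free and 86502 in control kidney, from a single spot each. Its differences were 0.07 ± 0.20, -0.41 ± 0.38 and -0.23 ± 0.30. The liver value was 0.17 under the median scaling.

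Hspe1 and Hspd1 encode the chaperonins HSP10 and HSP60, which form the folding chamber of mitochondria. Hspe1 had 33107 in DFO-treated and 36918 in untreated FAO cells, 34095 in iron-free and 35002 in control liver, and 44179 in iron-free and 44049.5 in control kidney. The differences were -0.16 ± 0.14 in FAO cells, -0.04 ± 0.27 in liver and 0.00 ± 0.21 in kidney. Hspd1 differed by -0.05 ± 0.14 in FAO cells and 0.08 ± 0.27 in liver. In kidney its spots were 7795 and 22446 on the iron-free diet and 21255 and 21644 on the control diet (-0.70 ± 0.21). A single iron-free spot was thus low while the other lay above both control spots, and the difference was 0.09 at a lower noise limit chosen after the data were seen.

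In the HSP70 and HSP110 family 8 genes were measured in FAO cells, 8 in liver and 9 in kidney, and 0 reached 2-fold, beside the 10.5%, 9.53% and 4.37% of all genes given above. In FAO cells 6 of 8 lay above 0 (median 0.27), a count that was 5 with normexp correction. In liver 7 of 8 lay above 0 (median 0.29), which became 8 of 8 under the median scaling and 3 of 6 with normexp. Of those 8 genes, 6 were well above background on both liver arrays by the main scaling. Hspa1b and Hspa4l were so on the iron-free array alone and could only count above 0. In kidney 3 of 9 lay above 0 (median -0.11), against 6 of 9 under the median scaling. Hspa1b is a stress-inducible cytosolic HSP70 whose near-identical copy Hspa1a is not among the symbols of the array, so the probe may read both. It had 122 in DFO-treated and 94.6 in untreated FAO cells (0.37 ± 0.23) and 506 in iron-free and 547 in control kidney (-0.11 ± 0.12). In liver it was 126 on the iron-free diet and 83.2 on the control diet, where it was not well above background. With that dim signal taken as it stands it was 1.51-fold higher (0.60), and 0.44 without a control spot in a noisy block.

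Hspa5 (BiP) is the HSP70 of the ER. Its spots were 15146 and 15027 in DFO-treated and 12244 and 12381 in untreated FAO cells (0.29 ± 0.14), 28172 and 27801 in iron-free and 21428 and 21809 in control liver (0.37 ± 0.27), and 9627 and 8925 in iron-free and 12522 and 11959 in control kidney (-0.40 ± 0.21). The spots of each pair did not overlap, higher in the treated group for FAO cells and liver and lower for kidney, at 1.23-fold, 1.29-fold and 1.32-fold. The FAO value was -0.20 with normexp correction. Among the others, Hspa4, an exchange factor of the HSP110 group, stood at -0.34, 0.33 and -0.18, and Hspa13, an ER-associated HSP70, at 0.26, 0.15 and -0.10 in FAO cells, liver and kidney. Hspa2 differed by 0.59 ± 1.53 in FAO cells, where its probe was dim. Hspa14 was at -0.13, 0.25 and -0.28. Hspa4l was measured in liver alone (1.17-fold higher against a dim control signal) and Hspa12a in kidney alone (0.16).

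Of the 3 HSP90 genes, Hsp90b1 passed 2-fold, in liver. Hsp90b1 (GRP94), the HSP90 of the ER, had spots of 7191 and 6218 in iron-free liver and 4479 and 2430 in control liver, a difference of 1.02 ± 0.25 or 2.03-fold. Both iron-free spots lay above both control spots, and by position on the array they were 1.61-fold and 2.56-fold higher. The value ranged from 0.60 to 1.60 over the alternatives, and was just under 2-fold (0.96) in the authors' deposited table. The 0.60 came at the lower noise limit. In FAO cells Hsp90b1 was 3558 with DFO and 3612 without (-0.02 ± 0.17), and in kidney 3101 on the iron-free and 3342 on the control diet (-0.11 ± 0.25). The cytosolic forms, inducible Hsp90aa1 and constitutive Hsp90ab1, were within 2-fold in each comparison by their brightest probe. Hsp90aa1 stood at -0.31 ± 0.23, 0.35 ± 0.35 and 0.29 ± 0.35 in FAO cells, liver and kidney by that probe, whose only DFO spot lay in a noisy block. Its other probes were above 0 in FAO cells (0.11 and 0.16, and 0.26 and 0.13 without noisy blocks), and 1 of them was at -0.51 in kidney, so its probes differed in sign in FAO cells and kidney. In liver the probe at -0.51 in kidney was past 2-fold, at 1.14 (1.15 without noisy blocks). Hsp90ab1 stood at 0.21 ± 0.20, -0.28 ± 0.38 and -0.11 ± 0.30 by its brightest probe.

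Of 14 listed ER members of these families 12 were on the array. In liver 10 of 11 measured ones lay above 0 (median 0.17), with Hsp90b1 past 2-fold (9 of 11 lay above 0 without noisy blocks), in FAO cells 8 of 12 (median 0.08) and in kidney 2 of 10 (median -0.08), with 0 past 2-fold in FAO cells and kidney. Of all genes 9.53%, 10.5% and 4.37% passed 2-fold in liver, FAO cells and kidney, and 52.1%, 53% and 45% lay above 0. The cytosolic and nuclear HSP70 and HSP110 genes had medians of 0.22, 0.29 and -0.11 in FAO cells, liver and kidney, so the ER median minus that median was -0.14 in FAO cells, -0.12 in liver and 0.03 in kidney. Each of these directions turned under an alternative: the gap was 0.19 in FAO cells and -0.09 in kidney without the filter on dim probes, and 0.21 in liver with normexp. Against the heat shock inducible genes the gap was -0.06 in FAO cells, 0.09 in liver and 0.03 in kidney. Dnajb11 (ERdj3), a J protein that brings clients to BiP, had 1871 in iron-free and 1111 in control liver (0.75 ± 0.12), 1466 in DFO-treated and 1427 in untreated FAO cells (0.04 ± 0.09), and 1072 in iron-free and 1161 in control kidney (-0.12 ± 0.11). Dnajc3 (p58IPK), an ER-lumen partner of BiP, had 5357 in iron-free and 4232 in control liver (0.34 ± 0.25). Dnajb9 (ERdj4) lay below 0 in liver, with 910.2 on the iron-free and 1154 on the control diet (-0.34 ± 0.26), so the ER J proteins did not share a direction there under the main scaling. In FAO cells Dnajb9 stood at 0.17 ± 0.51, and at 0.66 without a DFO spot in a noisy block.

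Letters of the ER stress element, CCAAT and CCACG with 9 bases of any kind between them, were searched on both strands after the liver values had been seen. They were in the promoters of 3 of the 53 genes (5.66%), Hsp90b1, Hspa5 and Dnajc3, and of 21 of all 27457 genes (0.0765%). The 3 stretches are shown because their genes carry the letters, and the capitals mark the matches. All 3 are ER members and lay above 0 in liver, as most measured ER members did. In kidney they lay below 0 under the main scaling (Hsp90b1 -0.11, Hspa5 -0.40 and Dnajc3 -0.03). A link between the letters and these values was not tested. Hsp90b1 lies at chr7:23012327-23012489 (minus strand, 2 matches, 1 on each strand), Hspa5 at chr3:38452953-38453011 (plus) and Dnajc3 at chr15:102432514-102432572 (plus), all in GRCr8.
Hsp90b1: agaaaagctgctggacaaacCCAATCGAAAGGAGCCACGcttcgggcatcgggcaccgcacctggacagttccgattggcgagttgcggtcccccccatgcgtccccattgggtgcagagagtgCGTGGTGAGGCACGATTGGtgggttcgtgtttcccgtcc
Hspa5: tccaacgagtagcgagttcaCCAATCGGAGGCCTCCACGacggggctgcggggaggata
Dnajc3: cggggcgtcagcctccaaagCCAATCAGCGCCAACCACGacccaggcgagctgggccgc

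Hspb8, which works with the co-chaperone BAG3 in clearing damaged proteins, had spots of 1315 and 1415 in DFO-treated and 635 and 674 in untreated cells, a difference of 1.06 ± 0.27 or 2.09-fold. The spots of each array agreed closely, and by position they were 2.07-fold and 2.10-fold higher, which makes Hspb8 the only 1 of these genes past 2-fold in FAO cells without noisy blocks. It was under 2-fold with normexp correction (0.61). Its liver values were 418 on the iron-free and 412 on the control diet (0.02 ± 0.29), and in kidney it was not well above background on either array.

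All 5 small heat shock protein genes measured in FAO cells lay above 0 (0.20 to 1.06, median 0.43), beside 53% of all measured genes. They did so under every alternative that kept the filter on dim probes. Hspb1 (HSP27) had 72.4 with DFO and 38.2 without, from 1 dim spot each (0.92 ± 1.67), and 889 in iron-free and 466 in control liver (0.93 ± 0.39). Its FAO difference was smaller than its spot error. In kidney it was 1714 on the iron-free and 1759 on the control diet (-0.04 ± 0.25). Hspb2 differed by 0.43 ± 0.27 in FAO cells, -0.39 ± 0.25 in liver and 0.07 ± 0.21 in kidney. Hspb11 (now Ift25, a subunit of the ciliary transport complex) stood at 0.43 ± 0.51 and Hspb6 at 0.20 ± 0.51 in FAO cells, both within their spot error. In liver 4 of 5 measured genes lay above 0 (median 0.27), against 2 of 5 with normexp, and in kidney 3 of 4 (median 0.05), against 1 of 4 with normexp.

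The DNAJA proteins are general partners of HSP70, with Dnaja3 in mitochondria. Dnaja1 showed the largest difference of the whole set, at -3.55 in FAO cells. Its DFO spots were 6770 and 54.0, a 125-fold gap on 1 array, and its untreated spots were 6707 and 7501. The second DFO spot lay in a noisy block, and without it the difference was -0.10. Dnaja1 spots were 10629 and 11152 in iron-free and 8355 and 19642 in control liver (-0.23 ± 0.27), and 6073 and 7454 in iron-free and 9181 and 9555 in control kidney (-0.48 ± 0.18), where the iron-free spots lay below both control spots. All 4 DNAJA genes were below 0 in FAO cells, also without noisy blocks (-0.52 to -0.10). Of these, Dnaja2 (-0.17 ± 0.20), Dnaja3 (-0.12 ± 0.51) and Dnaja4 (-0.48 ± 0.50) were within their spot error. By position, the Dnaja1 DFO spot outside the noisy block was 6770 against 6707 untreated. In liver all 3 measured DNAJA genes were below 0, and all 3 turned positive under the median scaling.

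**Figure D4:**
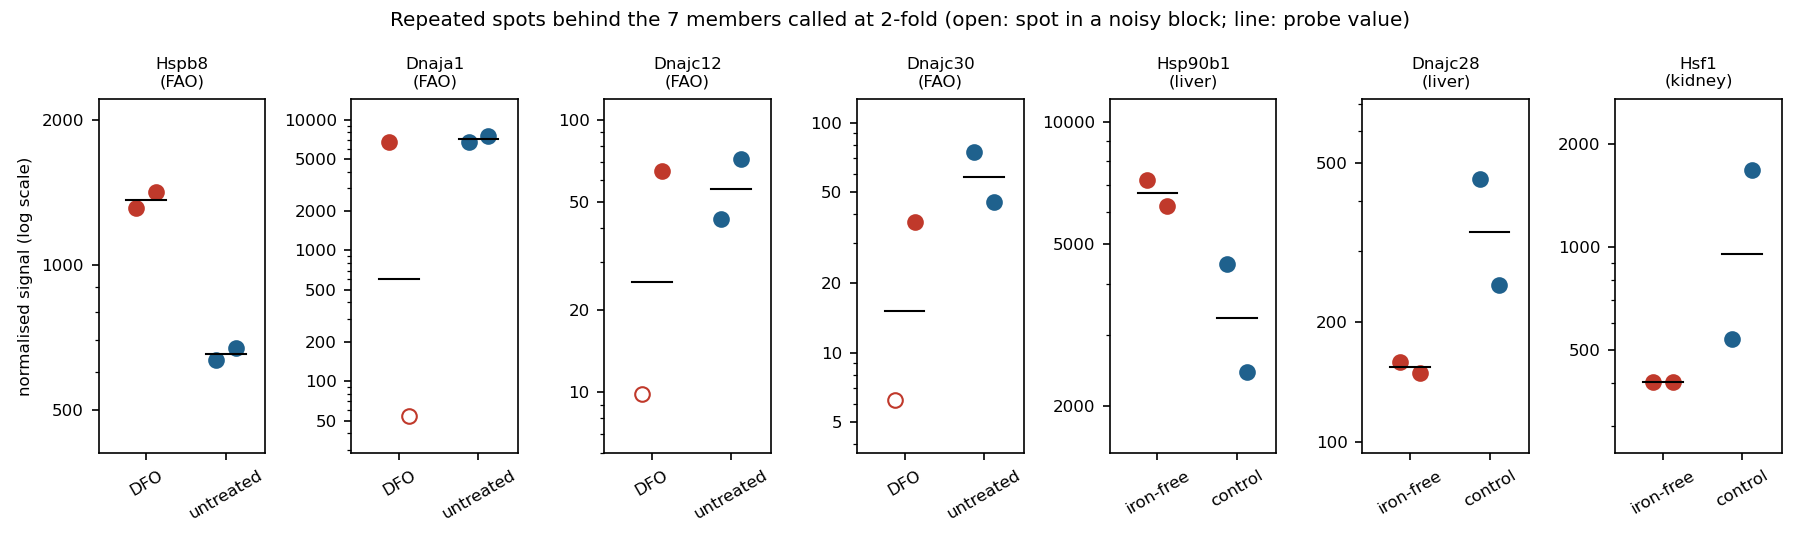
Normalised signal (vertical axes, log scale) of each repeated spot of the 7 genes that passed 2-fold, treated left of control, with a line at the probe value and open symbols for spots in noisy blocks. The control spots of Hsp90b1, Dnajc28 and Hsf1 are spread, the low DFO spots of Dnaja1, Dnajc12 and Dnajc30 are the open ones, and the spots of Hspb8 lie close together within each array.

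In the DNAJB family, which holds the main J partners of the heat shock response, 0 genes passed 2-fold in any comparison. Of all genes 10.5% passed it in FAO cells, 9.53% in liver and 4.37% in kidney. In FAO cells 8 of 9 measured DNAJB genes lay above 0 (median 0.23), beside 53% of all genes, and 8 or 9 of 9 did under every alternative that kept the filter. In liver 4 of 7 did (median 0.17), against 3 of 7 with normexp and 6 of 7 under the median scaling, and in kidney 3 of 8 (median -0.11), against 6 of 8 under the median scaling. Dnajb1 (HSP40), the J protein induced with HSP70 in heat shock, was the exception in FAO cells, with 766 in DFO-treated and 814 in untreated cells (-0.09 ± 0.26). In liver its spots were 889 and 928 on the iron-free diet and 1582 and 1624 on the control diet, 1.77-fold lower (-0.82 ± 0.28). Both pairs of spots agreed closely and did not overlap. The liver difference shrank to -0.24 under the median scaling, where all genes shifted up. In kidney Dnajb1 was 1168 on the iron-free and 1382 on the control diet (-0.24 ± 0.21).

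Dnajb6, a J protein that restrains aggregation, was above 0 in all 3 comparisons and under every alternative that gave a value. It had 1827 in DFO-treated and 1167 in untreated FAO cells (0.65 ± 0.20), 627 in iron-free and 437 in control liver (0.52 ± 0.28), and 707 in iron-free and 409 in control kidney (0.79 ± 0.26). The kidney difference was the highest there among the 49 measured genes. Dnajb4 stood at 0.70 ± 0.55 in FAO cells and 0.25 ± 0.74 in kidney, and was 1.46-fold higher in iron-free liver against a dim control signal. Dnajb12, an ER-membrane J protein, stood at 0.47, 0.17 and 0.47 in FAO cells, liver and kidney.

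The DNAJC proteins share little beyond the J domain and serve single places or clients. In FAO cells 8 of 23 measured genes lay above 0 (median -0.13), in liver 12 of 21 (median 0.02) and in kidney 5 of 18 (median -0.08). None of these majorities held under every alternative: in FAO cells 14 of 23 lay above 0 with normexp (median 0.03), in liver 8 of 20 in the authors' deposited table and 20 of 21 under the median scaling, and in kidney 16 of 20 under the median scaling (median 0.12). Dnajc12, a J protein that binds aromatic amino acid hydroxylases such as phenylalanine hydroxylase, had DFO spots of 9.88 and 64.6 and untreated spots of 43.2 and 71.9 in FAO cells. Its DFO probe was not well above background, and was 2.21-fold lower with that dim signal taken as it stands. The dimmer spot lay in a noisy block, and the difference was 0.18 without it. In kidney Dnajc12 was 271 on the iron-free and 441 on the control diet (-0.70 ± 0.37), and in liver 469 on the iron-free and 528 on the control diet (-0.17 ± 0.28). Dnajc30, a mitochondrial J protein, had DFO spots of 6.21 and 37.0 and untreated spots of 74.6 and 45.2 (at least 2.88-fold lower). The 6.21 spot lay in a noisy block, and without it the probe was above background, with a difference of -0.68.

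Dnajc28, which carries a mitochondrial-type J domain, had spots of 159 and 149 in iron-free and 455 and 248 in control liver, 2.18-fold lower (-1.12 ± 0.40). Both iron-free spots were below both control spots, by 2.86-fold and 1.66-fold by position, and the difference was -0.54 under the median scaling. In FAO cells Dnajc28 was 121 with DFO and 85.3 without (0.51 ± 0.51). Of the 8 listed mitochondrial genes, 7 lay below 0 in FAO cells (median -0.22), beside 5029 of 10695 of all genes. Of these, Hspd1 (-0.05 ± 0.14) and Dnaja3 (-0.12 ± 0.51) were within their spot error. Dnajc15 (-0.27) turned to 0.03 under an alternative. Those below 0 included Dnajc19, a subunit of the inner-membrane import motor's J complex, with 2386 with DFO and 4365 without (-0.87 ± 0.28). Dnajc11, a protein of the cristae-organising complex, had 144 with DFO and 250.1 without (-0.80 ± 0.50). In liver 4 of 7 measured mitochondrial genes lay below 0 (median -0.04) and in kidney 3 of 5 (median -0.06). Dnajc14 stood at -0.89 ± 0.47 in FAO cells, and its other measured probe at -0.75. Dnajc5, the synaptic-vesicle J protein also called cysteine string protein, stood at 0.65 ± 0.29 there. Dnajc7, a co-chaperone of both HSP70 and HSP90, had a liver bound of 0.78, and a difference of 0.05 without a control spot in a noisy block. Dnajc16 moved the other way in liver, from 0.26 to 0.85 without noisy blocks.

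**Figure D5:**
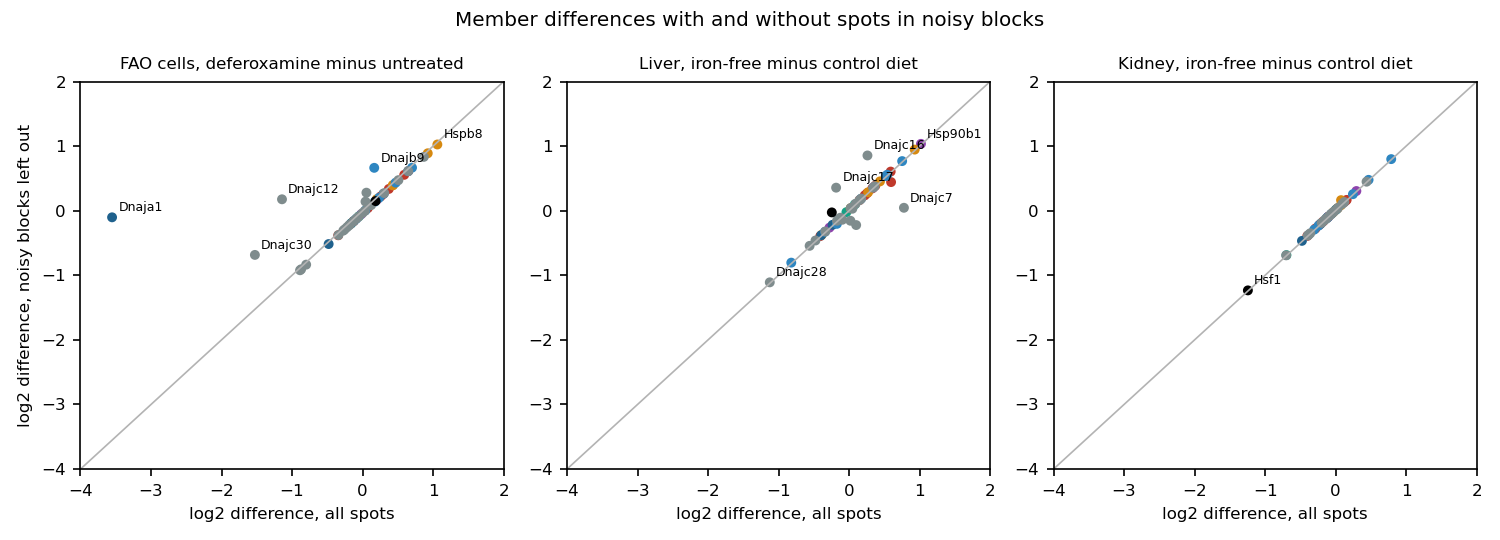
Log2 differences of the heat shock and DnaJ genes from all spots (horizontal axis) and with spots in noisy blocks left out (vertical axis), treated minus control, coloured by family. Most points follow the diagonal, while Dnaja1, Dnajc12 and Dnajc30 in FAO cells leave it, at -0.10, 0.18 and -0.68 on the vertical axis. Dnajb9 in FAO cells also leaves it, as do Dnajc7 and Dnajc16 in liver, at 0.05 and 0.85.

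The partners of these chaperones were read from lists that hold no member. The shares of all genes past 2-fold, given above, were 4.05% higher and 6.44% lower in FAO cells, 6.52% and 3.01% in liver, and 3.11% and 1.26% in kidney. Among 14 measured HSP90 co-chaperones, DFO gave 0 past 2-fold upward and 2 downward in FAO cells: the kinase loader Cdc37 at -1.19 (-0.09 without noisy blocks) and the ubiquitin ligase Stub1 at -2.39, which had no spot left without them. In the list of HSP70 exchange and docking factors 1 of 12 was lower, Hspbp1 at -2.09, again with no spot left, and in that of the TRiC chaperonin and prefoldin 1 of 13, Cct8 at -1.50 (-0.40 without noisy blocks). In liver and kidney these 3 lists had 0 genes past 2-fold. Of the ER folding and unfolded protein response list, 1 of 19 was past 2-fold in FAO cells and 1 of 19 in liver, in both cases Ero1a, the oxidase that recharges protein disulphide isomerase. Ero1a had 3091 with DFO and 866 without (1.84 ± 0.17), 1253 in iron-free and 465 in control liver (1.43 ± 0.28), and 397 in iron-free and 231 in control kidney (0.78 ± 0.41). Of other heat shock factors and small heat shock relatives 1 of 5 passed 2-fold in liver, the heat shock factor Hsf2, with 629.9 on the iron-free and 1511 on the control diet (-1.26 ± 0.28). The mitochondrial quality control list had 0 of 10 past 2-fold in each comparison.

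More of these genes differed between the controls of different origin than with iron. Control kidney against control liver had 13 of 51 measured genes at least 2-fold higher and 7 lower, beside 26.6% and 14.9% (41.5% together) of 9337 genes. Untreated FAO cells against control liver had 11 of 50 higher and 9 lower, beside 27.7% and 27.8% (55.5% together) of 10595 genes, so neither share stood above that of all genes. Hspb1 had 1759 in kidney, 466 in liver and 38.2 in FAO cells, each step over 2-fold. Hspb2 was also lowest in FAO cells but higher in liver than in kidney, with 894 in kidney, 564 in FAO cells and 6819 in liver, and its kidney and FAO levels were within 2-fold of each other. Hspb8 was 654 in FAO cells and 412 in liver and not well above background in kidney, at least 3.92-fold lower there than in liver. Hspa1b was 6.58-fold higher in kidney than in liver, where its signal was dim, and Hspa12a was at least 10.2-fold higher. Dnajc9, a histone chaperone of dividing cells, was 4.25-fold higher in FAO cells than in liver, while Dnajc12 was 9.47-fold, Dnajb9 7.61-fold and Dnajc3 3.81-fold lower.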

How the data were processed

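Groups were taken from the sample titles. Per the file headers, the authors extracted spots with Agilent Feature Extraction 10.7.3.1 (array design 028279, build rn4), and the deposited intensity gProcessedSignal is background-subtracted. The authors' deposited table gives log2 values and gene symbols. All 6 arrays lie on 1 slide and no gene spot was saturated. From the intensity, log2 was averaged over a probe's spots without outlier flags. Each array's 75th percentile of these log2 values was then subtracted, and the mean of the percentiles was added back. The percentile was taken over 9091 probes that were detected in every spot of every array. Where 1 array of a pair was dim, the difference is a bound against its lowest detected signal, or the dim probe's signal if higher. Against the dim probe's own signal it equals the measured difference, and spot noise in that signal means it is no minimum. Spot errors were pooled in 20 bins of signal. The number of arrays limits the precision.

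Genes were counted at 2-fold, with no test. The members, lists and rules were chosen with earlier results of these data known, and the named genes are those past 2-fold, a fixed list of core chaperones, genes whose probes disagree over 2-fold, and genes near the limit. Further genes were named after their values were seen. One gene of the HSP70 family is not reported here. Alternatives were 2 other scalings, normexp (offset 50, on the median signal), noisy blocks left out (spots departing by a median over 0.5 log2 from their repeats), the authors' table, no dim filter, the mean of a gene's probes and 1.5-fold. The steps were tested on simulated data. Python 3.11.15, numpy 2.4.6, pandas 2.3.3 and limma 3.58.1 under R 4.3.3 were used.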

Additional observations from a re-analysis of the deposited data

How the results depend on the processing

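No paired analysis was possible because each group is 1 array, and no replicate could be left out. Among the 50 named gene differences, 354 values under alternatives moved by less than the spot error, 38 moved by more and 2 turned a called sign: Dnajc12 in FAO cells, at 0.18 without noisy blocks and 0.20 at the lower noise limit of 0.3 log2, chosen after the data were seen. In FAO cells 4 genes passed 2-fold, against 14 at 1.5-fold, 2 with normexp (Dnaja1 and Dnajc19, both lower) and 1 without noisy blocks at either limit (Hspb8). In liver 2 passed, against 8 at 1.5-fold, 9 of 51 (17.6%), all higher, when each array was set to the median of its detected probes, where 21.2% of all genes passed (20.4% higher), 1 (Dnajc28) with the 75th percentile of all probes or the authors' table, and 4 of 69 (5.8%, against 16.1% of all genes) without the dim filter. That median scaling gave a liver median of 0.63, against 0.06. In kidney 1 passed, against 4 at 1.5-fold and 2 of 69 (2.9%, against 8.06%) without the filter. At 2-fold the share of these genes was below that of all genes in all 3 comparisons under each alternative where both were computed (not for the mean over a gene's probes). Under at least 1 alternative 14 of 55 measured genes changed sign with DFO, 30 of 50 in iron-free liver and 29 of 49 in iron-free kidney. Signal over background limits the dim probes, which have bounds only.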

Other observations

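Probes of the same gene did not always give the same value. Hspa8 has 4 measured probes, whose liver differences ran from -0.87 to 1.26, and from -0.86 to 0.33 without noisy blocks. The 3 probes of Hsp90aa1 ran from 0.11 to 1.14 in liver and from -0.51 to 0.29 in kidney. In liver the probe at 1.14 had spots of 3178 and 3116 in iron-free and 1384 and 1479 in control liver, while the brightest had 6573 in iron-free and 5169.7 in control liver. Those of Hsp90ab1 ran from -1.21 to 0.21 in FAO cells, and from -0.40 to 0.17 without noisy blocks. For Dnajb2, a J protein with ubiquitin-binding motifs, the brightest probe gave -0.14 in kidney and a dim single-spot probe, with 239.8 on the iron-free and 88.8 on the control diet, gave a bound of 1.19. In FAO cells and kidney all 4 probes of Hspa8 stayed within 2-fold of each other, as did both probes of Hspe1 in all 3 comparisons.

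Ddit3 (CHOP), a transcription factor of the ER stress and amino acid responses, stood at 0.87 ± 0.20 in FAO cells from all spots and at 2.13 without spots in noisy blocks, where it was the other gene of the ER folding and unfolded protein response list past 2-fold with Ero1a (1.80). It was chosen after its values were seen. In liver Ddit3 stood at 0.02 and in kidney at -0.10.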
